A study of Mus musculus with 2 samples.

Results

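The kinesin genes of the mouse were followed through spermatogenesis in single-cell transcriptomes of testicular germ cells. The members are all gene symbols made of Kif, a number and at most 1 further letter with an optional number, and 38 of the 31053 genes in the deposited matrices matched. Symbols of another form, such as Kifc1 and Cenpe, which also encode kinesins, did not match and are treated as a neighbouring list of 5 measured genes. The study made 2 droplet libraries of 3' ends from testes of adult mice of strain C57BL/6, 1 wild type and 1 of genotype Zfp541-/-. Per the labels' protocols, the tissue was dissociated with enzymes and tetraploid germ cells were sorted by flow cytometry, although the sample titles call both libraries whole testis and the authors also annotated spermatids, which are haploid. The targeted gene, Zfp541, codes for a zinc finger protein found in male germ cells. The sources used here do not give how the allele was made, or whether a library came from 1 mouse or several.

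Kinesins are motor proteins that use ATP to walk along microtubules or to take their ends apart. In dividing cells they build the spindle, align chromosomes and complete cytokinesis, and in other cells they carry vesicles, mRNAs and proteins. In a male germ cell the same family serves mitosis of spermatogonia, the meiotic divisions, and then the manchette and flagellum of the spermatid. Kinesin-2 motors carry the intraflagellar transport trains that build an axoneme, and kinesin-13 proteins shorten microtubules instead of walking on them.

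The authors' annotation covered 17253 cells in 15 stages and 25 clusters, with 8420 cells and 108612781 unique molecular identifiers (UMIs, 1 per captured mRNA molecule) in the wild-type library and 8833 cells and 119675250 UMIs in the library labelled Zfp541-/-. For each gene, the UMIs of a stage in 1 library were added up and expressed per 1000000 UMIs of that stage (CPM). A 3' tag is counted once per molecule, so the levels are not divided by gene length. The 18 units described below are a stage in 1 library with at least 50 cells: 9 in each library. Spermatogonia (Diff.Spg1 to Diff.Spg3), preleptotene, leptotene and zygotene reached that number only in the library labelled Zfp541-/-, and diplotene, the first meiotic division (MI), round spermatids (RS.1 to RS.3) and elongated spermatids (ES) only in the wild-type library. Stage and genotype therefore cannot be told apart outside the pachytene stages that both libraries share, called early (eP), mid (mP) and late (lP). The libraries had 17 cell barcodes in common. Each genotype had 1 library, so there was no test, and intervals in brackets are 95% intervals for counting error only: exact Poisson for a level, exact Clopper-Pearson for a share and exact conditional binomial for a ratio.

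Zfp541 transcripts did not separate the libraries as the genotype would. In mP the wild-type library had 28.1 CPM (24.9 to 31.6), and the library labelled Zfp541-/- had 81.9 CPM (79.4 to 84.5). Whether its 3' tag lies outside the deleted part was not tested, so the label is carried as given. In a shared stage the cells labelled Zfp541-/- held more UMIs, with a median of 18665 against 7945 in mP and 23690 against 9210 in lP. They also had a higher median share of mitochondrial UMIs, at 3.08% against 1.48% in mP and 2.22% against 1.26% in lP. The clusters of mP and lP had no marker of any stage among their 10 leading genes, so the check neither backs nor contradicts those names. Summed over 10 markers, elongating spermatid genes stood at 341750 CPM in ES and at most 912 CPM in any unit before RS.2. Markers of 6 somatic cell types summed to at most 6.28 CPM per type in mP and lP of either library.

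Of the 38 members, 31 reached 10 CPM in some unit and were placed by the stage of their highest level. Spermatogonia held the peak of 13 members, or 41.9%, against 26.7% of the 13247 genes that reached 10 CPM. Meiotic stages from preleptotene to diplotene also held 13 (41.9%, against 42.5% of all genes), 7 of them in preleptotene. No member peaked in MI, where 7.10% of all genes did. Spermatids held 5 (16.1%, against 23.7%). The share for meiosis was close to that of all genes. The peak unit was clear of the next highest unit, with counting intervals that did not overlap, for 3 members of the spermatogonia class, 7 of the meiosis class and 4 of the spermatid class. This was not counted over all genes, so it describes single members and sets no class apart. In the wild-type library alone, over units of at least 20 cells, 18 members peaked in spermatogonia, 7 in meiosis, 1 in MI and 8 in spermatids. Of the 31 members, 19 kept the class given here. Wild-type Diff.Spg1 (8 cells), preleptotene (12) and leptotene (11) were under 20 cells, so a member with its peak there could not keep that stage. In wild-type Diff.Spg2 and Diff.Spg3, 3 UMIs made 33.4 and 31.9 CPM, so few UMIs can set a peak. Shares over all genes were not counted for this setting. Just inside the threshold of 10 CPM was Kif21b, with a peak of 17.6 CPM, and just outside it was Kif19a, with 8.33 CPM.

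**Figure D1:**
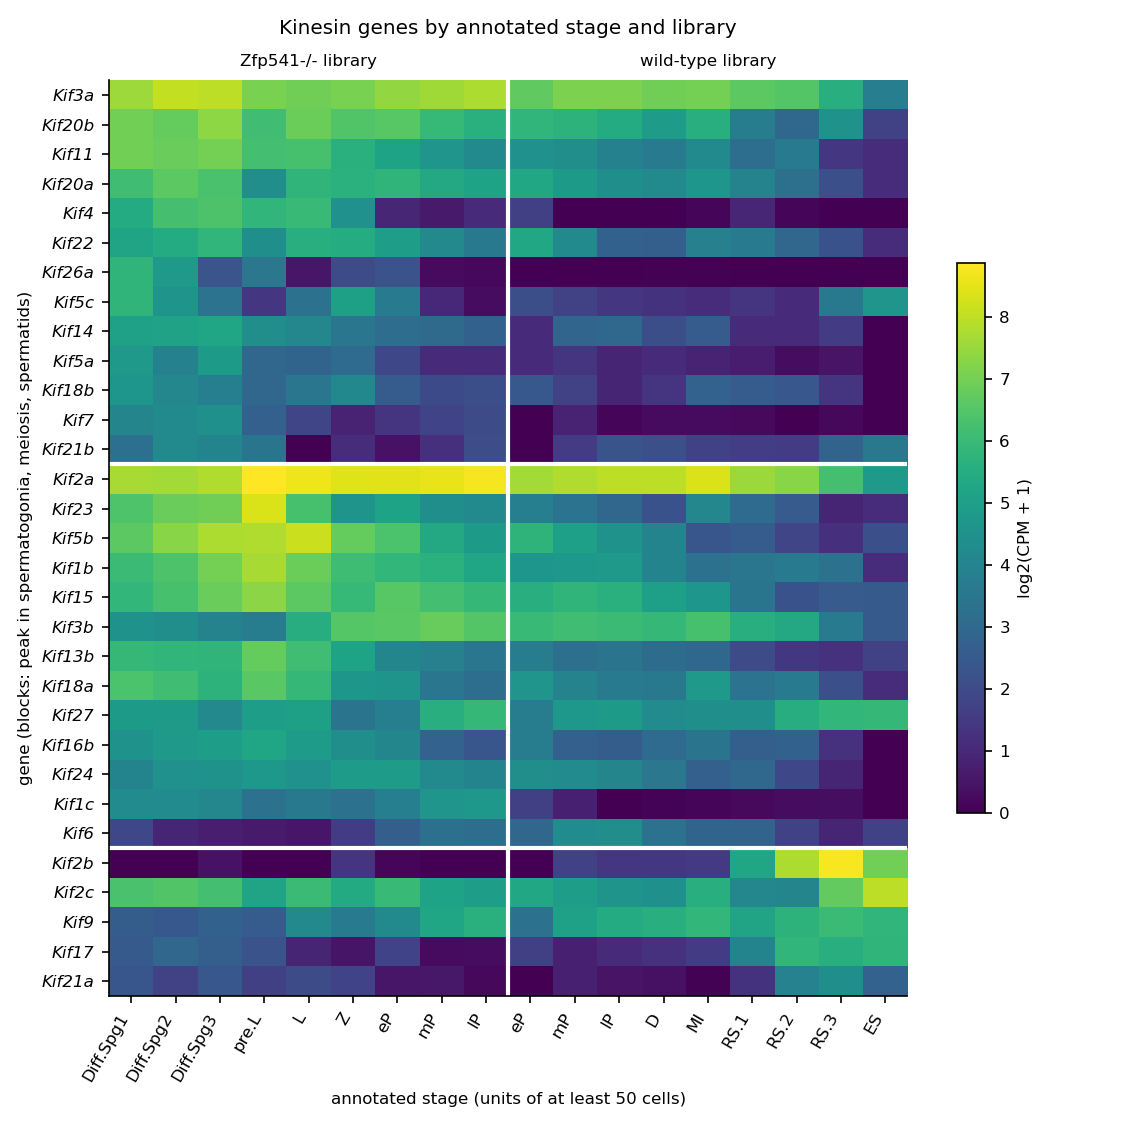
Level of the 31 placed kinesin genes, as log2(CPM + 1) by colour, in the 18 units of at least 50 cells, with the Zfp541-/- library on the left and the wild-type library on the right. Rows are ordered by peak class (13 spermatogonia, 13 meiosis, 5 spermatids) and then by peak level, and Kif2a is bright in nearly every column whereas Kif2b and Kif17 are bright only in spermatid columns.

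Together, the 38 members made up 1669 CPM in Diff.Spg1 and reached their highest sum, 2182 CPM, in preleptotene of the library labelled Zfp541-/-. From zygotene to lP of that library the sum lay between 1216 and 1341 CPM. In the wild-type library it lay between 582 CPM in RS.1 and 946 CPM in RS.3. The number of members of at least 10 CPM was 26 in Diff.Spg2, 20 in preleptotene, 13 in MI and 9 in ES. The same numbers were not counted over all genes, so they cannot be read as a change particular to kinesins. In ES the 10 elongating spermatid markers alone made up 341750 CPM. A few genes carried most of the sum late. Kif2a alone was 12.5% (11.4 to 13.6) of the members' UMIs in Diff.Spg1 but 37.1% (36.5 to 37.6) in MI, and Kif2b was 46.2% (45.1 to 47.4) in RS.3.

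The spindle and cytokinesis kinesins were highest early. All 10 members of this group reached 10 CPM, 7 peaked in spermatogonia and the other 3, Kif23, Kif15 and Kif18a, in preleptotene. Their summed level was 847 CPM in Diff.Spg3, 848 CPM in preleptotene, 256 CPM in mP of the library labelled Zfp541-/-, and 204 CPM in mP, 115 CPM in diplotene, 179 CPM in MI and 12.95 CPM in ES of the wild-type library. Spermatogonia divide by mitosis, and within the library labelled Zfp541-/- every stage from leptotene on was below Diff.Spg3.

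Kif11 (chr19:37376403-37421859, plus strand, GRCm38), the motor that pushes spindle poles apart, stood at 124, 114 and 127 CPM in the 3 spermatogonial stages, with an interval of 115 to 141 at its peak in Diff.Spg3. It was at 72.7 CPM in preleptotene, 77.0 in leptotene, 48.6 in zygotene, 34.0 in eP, 23.7 in mP and 17.5 in lP of that library. Wild-type Kif11 was at 21.1, 19.8 and 14.0 CPM in the 3 pachytene stages, 11.4 in diplotene, 17.9 in MI, 8.12, 11.7 and 1.67 in the round spermatids and 1.18 in ES. From leptotene on its level was thus lower at each later stage up to diplotene, with a small second high point at MI. Kif20b, a kinesin-6 of the midbody, peaked in Diff.Spg3 at 164 CPM (150 to 179), was at 69.4 in preleptotene and at 116 in leptotene. It was at 45.9 CPM in MI, 6.77 in RS.2 and 21.98 in RS.3. Kif20a, the kinesin-6 that works at the central spindle, peaked in Diff.Spg2 at 98.8 CPM (88.4 to 110.0), with 69.1 and 79.2 CPM in the stages before and after, 19.8 in preleptotene and 54.6 in leptotene. Both genes thus had a low point in preleptotene between higher levels on either side.

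Kif23, the motor subunit of centralspindlin, which bundles the spindle midzone and places the cleavage furrow, had the opposite step. It was at 84.6, 113 and 123 CPM in spermatogonia, 326 CPM (301 to 354) in preleptotene, 76.1 in leptotene and 22.9 in zygotene, so that preleptotene was set apart from the stages on either side. A UMI of Kif23 was found in 65.4% (60.9 to 69.6) of preleptotene cells, and in 44.3% after every cell was thinned to 2000 UMIs. The 12 wild-type preleptotene cells held 4 UMIs, or 158 CPM (43.2 to 406), too few to place beside it. Kif15, which backs up Kif11 on the spindle, also peaked in preleptotene at 161 CPM (143 to 180), and Kif18a, which aligns chromosomes at the plate, at 95.8 CPM (82.1 to 111), an interval that overlaps that of Diff.Spg1 at 79.9 CPM.

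The remaining division members were lower. Kif22, a chromokinesin, peaked in Diff.Spg3 at 56.5 CPM (48.3 to 65.7), Kif14, a cytokinesis motor, in Diff.Spg3 at 37.1 CPM (30.5 to 44.7) and Kif18b, a regulator of astral microtubules, in Diff.Spg1 at 24.0 CPM (17.9 to 31.5). Kif4, a chromokinesin that lies on the X chromosome (chrX:100625737-100727214, plus strand), had the largest ratio between zygotene and mP among the 10 division members. It stood at 81.9 CPM (71.9 to 92.8) in Diff.Spg3, 61.2 in leptotene and 21.3 in zygotene, but at 0.932 CPM in eP and 0.553 CPM (0.365 to 0.805) in mP of the library labelled Zfp541-/-. The wild-type library had 0 Kif4 UMIs in mP, lP and diplotene. The X chromosome is silenced as a whole in pachytene spermatocytes. In the library labelled Zfp541-/-, 174 of 177 X-linked genes of at least 10 CPM in zygotene (98.3%) were below 10% of that level in mP, against 345 of 7237 autosomal genes (4.77%). Kif4 was 1 of these X-linked genes, and no other member lies on the X chromosome.

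**Figure D2:**
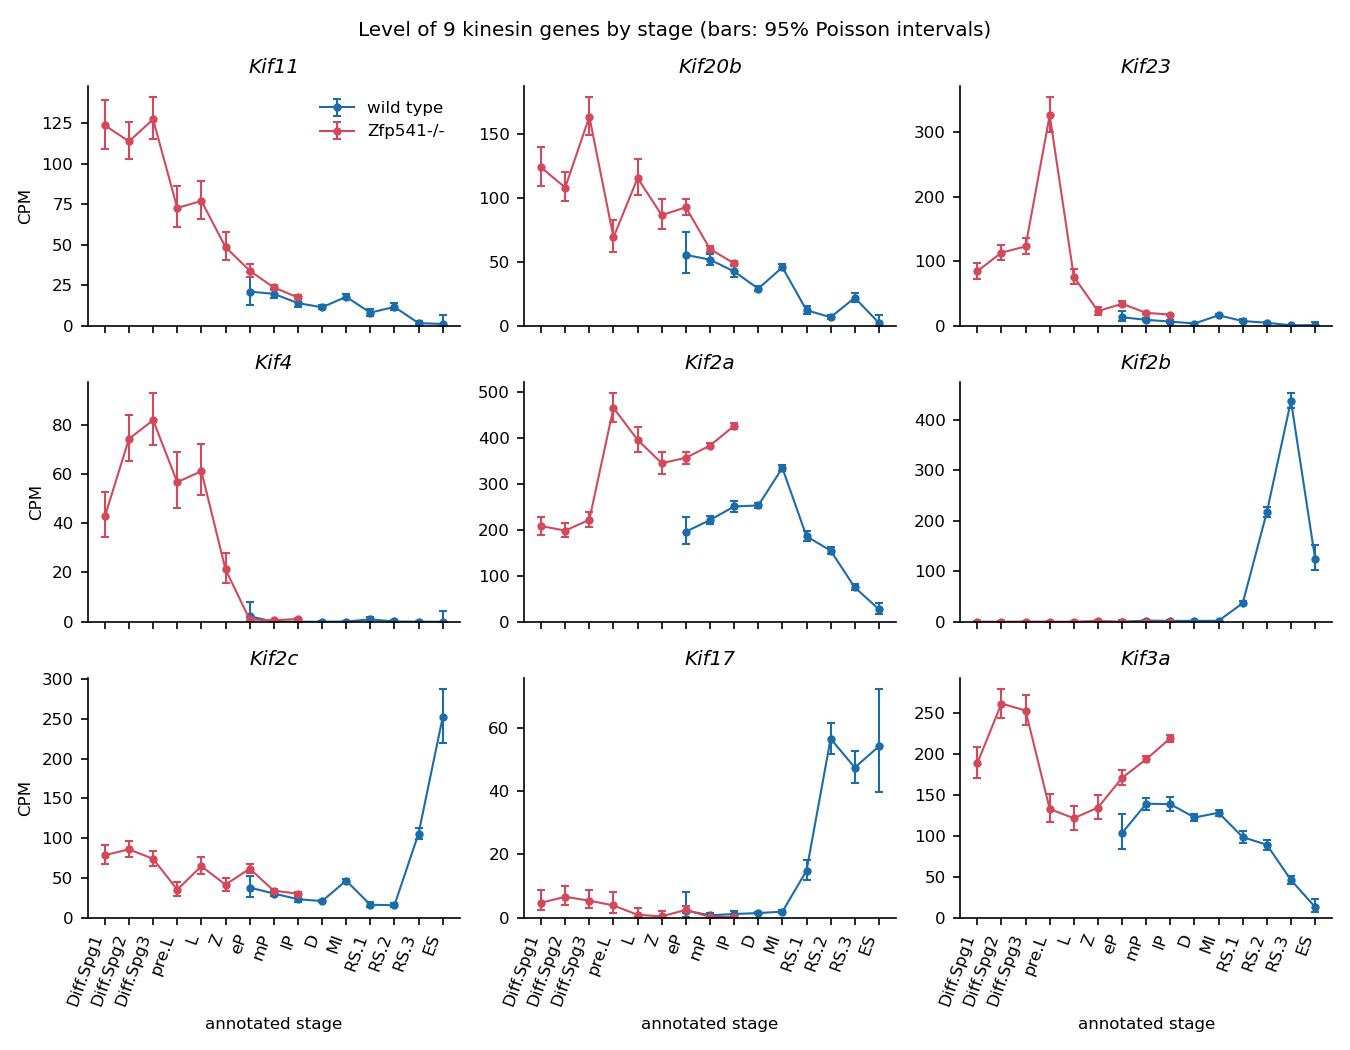
CPM of 9 kinesin genes (vertical axes, each from 0) by annotated stage, with the wild-type library in blue, the Zfp541-/- library in red and 95% Poisson intervals as bars. Kif11, Kif20b and Kif4 are highest in spermatogonia, Kif23 has a single high point of 326 CPM in preleptotene, and Kif2b, Kif2c and Kif17 are highest in spermatids.

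Windows of 300 bases around the annotated start (250 before, 50 after) were available from RefSeq (GRCm38.p6) for 31 of the 38 members. No window was used for Kif5a, Kif5b, Kif13b, Kif19a, Kif20a, Kif21b and Kif28. They were searched on both strands for the cell cycle homology region (CHR, TTTGAA), the CCAAT box (CCAAT), the MYB site (TAACNG or CAACNG), the cyclic AMP response element (CRE, TGACGTCA) and the RFX motif (GTTGCC). MYB and RFX matches can overlap. A CHR lay in 8 of the 9 division members with a window (88.9%), against 17.9% of all 32817 windows, and in 0 of 7 windows of transport members. Kif18a was the division member without it. A CCAAT box lay in 6 of these 9 (66.7%, against 37.4% of all windows). A match describes letters in the window and is no evidence of binding. The windows of Kif11 and Kif23 are shown as a spindle motor highest in spermatogonia and the division member highest in preleptotene. Capitals mark every motif match on either strand, so that a CHR reads TTTGAA or TTCAAA and a CCAAT box CCAAT or ATTGG. Kif11 is chr19:37376132-37376431 on the plus strand, and Kif23 is chr9:61946750-61947049 on the minus strand, written in the direction of the gene.
Kif11: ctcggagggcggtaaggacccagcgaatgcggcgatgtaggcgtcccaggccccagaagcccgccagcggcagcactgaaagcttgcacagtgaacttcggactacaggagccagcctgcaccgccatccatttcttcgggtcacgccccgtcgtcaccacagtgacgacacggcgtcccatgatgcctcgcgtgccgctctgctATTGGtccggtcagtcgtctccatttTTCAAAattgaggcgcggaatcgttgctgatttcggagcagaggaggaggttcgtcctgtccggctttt
Kif23: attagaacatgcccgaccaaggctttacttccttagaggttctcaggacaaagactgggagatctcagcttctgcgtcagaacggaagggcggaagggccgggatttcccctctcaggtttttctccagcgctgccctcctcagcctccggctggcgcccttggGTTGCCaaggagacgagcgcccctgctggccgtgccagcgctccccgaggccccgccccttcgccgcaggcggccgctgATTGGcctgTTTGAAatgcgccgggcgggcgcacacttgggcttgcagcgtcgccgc
Both hold a CHR downstream of an inverted CCAAT box. Kif11 reads ATTGG and then the CHR as TTCAAA, and Kif23 reads ATTGG and then the CHR as TTTGAA.

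The preleptotene step was compared with the last spermatogonial stage within the library labelled Zfp541-/-, a comparison added after the values had been seen. Of 25 members of at least 10 CPM in either stage, 3 were at least 2-fold higher in preleptotene (15.8% of 8755 genes) and 6 were at least 2-fold lower (21.1% of genes). The counts were 12% and 24% of the members, near those of all genes, and the median log2 ratio was -0.53 for the members and -0.10 for all genes tested. Kif23 was higher by 1.41 on the log2 scale (1.22 to 1.60), Kif2a by 1.07 (0.92 to 1.22) and Kif26a, at 4.01 against 10.5 CPM, by 1.36 (0.27 to 2.56). Kif2a was under 2-fold with at most 5% mitochondrial UMIs (0.69), and Kif26a with cells thinned to 2000 UMIs (0.55). The lower members were Kif5a at -2.0 (-3.06 to -1.17), Kif20a at -1.98 (-2.55 to -1.49), Kif7 at -1.88 (-3.06 to -0.96), Kif22 at -1.46 (-2.03 to -0.95), Kif20b at -1.24 (-1.53 to -0.95) and Kif2c at -1.06 (-1.49 to -0.66), of which Kif2c was under 2-fold when scaled by the median of ratios (-0.96). The mitotic kinesins were thus divided, with Kif23 higher and Kif20a, Kif20b and Kif22 lower.

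At MI, when the first meiotic spindle forms, 4 of the 16 members tested in the wild-type library were at least 2-fold higher than in diplotene, a share of 25% against 3.86% of 6552 genes. One member, Kif5b, was at least 2-fold lower (7.49% of genes were). The median log2 ratio was 0.39 over the members and -0.10 over all genes. This comparison was also added after the values had been seen. The 4 were Kif23, at 3.65 CPM in diplotene and 16.4 in MI (log2 ratio 2.16, 1.87 to 2.46), Kif22, at 5.50 and 13.6 CPM (1.30, 1.05 to 1.56), Kif18a, at 10.96 and 26.0 CPM (1.25, 1.07 to 1.43), and Kif2c, at 20.7 and 46.5 CPM (1.17, 1.03 to 1.30). With thinned cells Kif18a was under 2-fold (0.88), which left 3. All 4 act on the division spindle or its chromosomes. Their levels in spermatogonia, measured in the other library, were higher still, at 84.6 to 123 CPM for Kif23 and 51.8 to 79.9 CPM for Kif18a. The stage names were less clear here, since MI clusters 6 and 14 and diplotene cluster 3 had 1 or 2 pachytene markers and none of their own among their 10 leading genes, so the levels are also given by cluster number. Kif23 was at 2.75 to 4.29 CPM in the 3 diplotene clusters and at 25.1, 10.1 and 13.04 CPM in MI clusters 6, 8 and 14, and Kif2c was at 15.3 to 31.3 CPM and at 59.96, 34.8 and 47.7 CPM, without overlap. Kif18a overlapped, at 6.75 to 18.3 CPM in the diplotene clusters and 39.1, 14.9 and 26.7 CPM in the MI clusters. Kif22 did too, because cluster 14, at 4.87 CPM, lay within the diplotene range of 3.85 to 6.46 CPM, whereas clusters 6 and 8 were at 14.9 and 15.3 CPM. Kif5b was at 12.04 to 21.5 CPM in the diplotene clusters and 3.35 to 7.01 CPM in the MI clusters.

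The kinesin-13 depolymerases changed places from stage to stage. Kif2a (chr13:106958996-107022126, minus strand), the highest of the 38 members by CPM in 13 of the 18 units, stood at 208, 198 and 222 CPM in spermatogonia, 465 CPM (434 to 497) in preleptotene, 395 in leptotene, 344 in zygotene and 356, 383 and 426 CPM in the 3 pachytene stages of the library labelled Zfp541-/-. In the wild-type library Kif2a was at 196, 221 and 250.3 CPM in pachytene, 253 in diplotene, 334 in MI, and then 186, 154, 74.6 and 27.1 CPM from RS.1 to ES. Its wild-type level was thus highest in MI and lowest in ES. Cenpe, a kinesin outside the symbol rule, was above it in Diff.Spg1, at 267 CPM.

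Kif2b was the highest member in RS.2 and RS.3. It is a gene of a single exon (chr11:91575315-91577558, minus strand) and stood at 36.8 CPM (32.2 to 41.8) in RS.1, 217 (208 to 227) in RS.2, 437 (423 to 452) in RS.3 and 125 (102 to 151) in ES. In no unit before RS.1 did it exceed 2.37 CPM. A Kif2b UMI was present in 99.2% (97.8 to 99.8) of RS.3 cells and in 61.0% after thinning to 2000 UMIs, against 2.60% (2.0 to 3.33) of MI cells and 0.384% after thinning. Median depth was 19631 UMIs in RS.3 and 13674 in MI. Kif2c, which corrects attachments at the centromere in dividing cells, was high at both ends of the series. It was at 73.9 to 86.0 CPM in spermatogonia, 15.5 CPM in RS.2, 106 CPM (98.6 to 113) in RS.3 and 252 CPM (219 to 288) in ES. Kif24, a centriolar member that restrains cilium formation, had a lower peak, at 28.5 CPM (25.1 to 32.4) in eP of the library labelled Zfp541-/-. In the wild-type library Kif24 was at 5.59 CPM in MI, 0.900 CPM in RS.3 and 0 CPM in ES.

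The windows of Kif2a and Kif2b are shown because they led the meiosis and spermatid classes and belong to 1 subfamily. Kif2a is chr13:107022065-107022364 and Kif2b is chr11:91577506-91577805, both on the minus strand. Capitals mark the same motifs, and MYB and RFX matches run together at the end of Kif2a.
Kif2a: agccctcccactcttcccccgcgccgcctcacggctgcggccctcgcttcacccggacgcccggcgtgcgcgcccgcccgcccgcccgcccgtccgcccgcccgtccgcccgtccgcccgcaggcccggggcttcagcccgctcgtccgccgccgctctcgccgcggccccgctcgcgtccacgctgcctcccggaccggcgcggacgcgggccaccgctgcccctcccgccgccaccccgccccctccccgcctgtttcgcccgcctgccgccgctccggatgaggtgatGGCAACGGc
Kif2b: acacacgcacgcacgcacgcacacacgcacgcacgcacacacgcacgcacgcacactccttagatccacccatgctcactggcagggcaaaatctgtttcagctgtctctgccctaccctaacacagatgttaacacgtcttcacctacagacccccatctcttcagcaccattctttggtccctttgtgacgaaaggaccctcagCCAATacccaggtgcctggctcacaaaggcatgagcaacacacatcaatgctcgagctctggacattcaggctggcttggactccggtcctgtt
Kif2a held a MYB and an RFX match and no CHR, and Kif2b held a CCAAT box only. The Kif2a window is rich in C and G, and the Kif2b window opens with a run of CA and CG repeats.

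Among the cilium and flagellum motors no single stage dominated. Of 9 members 7 were placed, 2 in spermatogonia (Kif3a and Kif7), 3 in meiosis (Kif3b, Kif27 and Kif6) and 2 in spermatids (Kif9 and Kif17). Kif3a and Kif3b form with Kifap3 the heterotrimeric kinesin-2 of intraflagellar transport, yet their levels had different profiles. Kif3a stood at 189, 262 (244 to 279) and 253 CPM in spermatogonia, 133, 121 and 134 CPM from preleptotene to zygotene, and 171, 193 and 219 CPM in pachytene of the library labelled Zfp541-/-. In the wild-type library Kif3a was at 103, 139 and 139 CPM in pachytene, 122 in diplotene, 128 in MI, 98.2, 89.0 and 45.9 in the round spermatids and 12.95 in ES. Kif3b was at 12.7 CPM in preleptotene and 91.5 in zygotene, and peaked in mP of that library at 111 CPM (108 to 114). It stood at 76.9 CPM in wild-type MI and at 4.71 CPM in ES. Kifap3 was highest in eP of the library labelled Zfp541-/- (185 CPM) and, in the wild-type library, at 38.6 CPM in MI and 124 CPM in RS.3, a stage in which both motor subunits were below their MI levels.

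Kif17, the homodimeric kinesin-2, which carries RNA and a transcriptional coactivator in male germ cells, had nearly all of its level in spermatids. It stood at 14.8 CPM (11.95 to 18.1) in RS.1, 56.6 (51.9 to 61.6) in RS.2, 47.4 (42.7 to 52.5) in RS.3 and 54.2 (39.7 to 72.2) in ES, and the last 3 intervals overlap. No earlier unit exceeded 6.57 CPM. A Kif17 UMI was present in 54.1% (50.1 to 58.1) of RS.2 cells (11.1% thinned) and in 2.69% (2.07 to 3.43) of MI cells (0.341% thinned). Kif9, a kinesin-9 of the motile axoneme, had higher levels over a longer span. It was at 4.48 to 5.68 CPM in spermatogonia, 17.2 in leptotene, 43.0 in wild-type lP, 57.0 in MI and 65.6 CPM (60 to 71.5) in RS.3. Kif6, the other kinesin-9, peaked at 19.8 CPM (16.8 to 23.1) in wild-type lP and was at 0.900 CPM in RS.3, so the 2 kinesin-9 genes separated after pachytene.

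Kif27, a kinesin-4 of motile cilia, was at 59.2 CPM (57.0 to 61.4) in lP of the library labelled Zfp541-/- and at 58.9 CPM (43.7 to 77.6) in wild-type ES, which cannot be ordered within counting error. Within the wild-type library it was at 20.2 CPM in MI and RS.1, 45.3 in RS.2 and 57.5 in RS.3. Kif7, its relative in Hedgehog signalling, peaked at 21.1 CPM (16.2 to 26.9) in Diff.Spg3 and was under 1 CPM in every wild-type unit. An RFX motif, the motif of a family of regulators of ciliary genes, lay in 4 of the 8 windows of cilium and flagellum members (50%) and in 12.5% of all windows. It was not particular to this group, since it lay in 2 of the 4 windows of depolymerases (50%) and in 9 of the 31 members' windows (29.0%). A CRE lay in 3 of the 31 members' windows, those of Kif17, Kif18a and Kif5c (9.68%, against 1.79% of all windows). The windows of Kif3a, which led the spermatogonia class, and Kif17, a spermatid member, show these matches. Kif3a is chr11:53567119-53567418 and Kif17 is chr4:138262001-138262300, both on the plus strand, and the Kif17 start of RefSeq lies inside the longer gene model of the annotation (chr4:138250435-138301967).
Kif3a: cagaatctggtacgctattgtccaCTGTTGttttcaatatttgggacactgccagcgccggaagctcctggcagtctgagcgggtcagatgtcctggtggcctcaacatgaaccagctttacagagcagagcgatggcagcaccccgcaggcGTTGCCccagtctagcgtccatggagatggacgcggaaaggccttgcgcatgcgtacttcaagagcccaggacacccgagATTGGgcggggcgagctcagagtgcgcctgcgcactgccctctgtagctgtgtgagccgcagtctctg
Kif17: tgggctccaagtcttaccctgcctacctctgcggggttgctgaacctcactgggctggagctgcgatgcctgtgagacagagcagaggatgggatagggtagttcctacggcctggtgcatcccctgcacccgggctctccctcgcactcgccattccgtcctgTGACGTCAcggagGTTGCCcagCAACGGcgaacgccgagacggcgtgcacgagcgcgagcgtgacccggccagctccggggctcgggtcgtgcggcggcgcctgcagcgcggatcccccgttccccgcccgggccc
In Kif17 the CRE (TGACGTCA) stands just before an RFX motif (GTTGCC), and Kif3a holds an RFX motif and an inverted CCAAT box.

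Cargo transport kinesins were spread over the stages, with 3 highest in preleptotene and Kif5b in leptotene. Of 12 members 9 were placed, 3 in spermatogonia (Kif5c, Kif5a, Kif21b), 5 in meiosis (Kif5b, Kif1b, Kif13b, Kif16b, Kif1c) and 1 in spermatids (Kif21a). Kif5b, the ubiquitous heavy chain of conventional kinesin, was at 98.7, 154 and 219 CPM in spermatogonia, 224 in preleptotene, 281 CPM (259 to 303) in leptotene, 109 in zygotene and 80.0, 39.8 and 27.4 CPM in pachytene. In the wild-type library it was at 53.4, 31.3 and 22.1 CPM in pachytene, 14.9 in diplotene and 4.15 in MI, a log2 ratio of -1.84 (-2.13 to -1.57) at that step, and at 1.29 to 4.94 CPM in spermatids. Its neuronal relatives Kif5c and Kif5a peaked at 54.1 CPM (44.6 to 64.9) in Diff.Spg1 and 27.4 CPM (21.8 to 34.0) in Diff.Spg3. Kif5c had 2 further high points, 31.7 CPM in zygotene and 23.6 CPM in ES. With at most 5% mitochondrial UMIs its peak class was meiosis.

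Kif1b, a carrier of mitochondria and vesicles, was at 64.9, 81.8 and 129 CPM in spermatogonia, 206 CPM (186 to 228) in preleptotene, 117 in leptotene, 68.2 in zygotene and 57.8, 49.1 and 37.1 CPM in pachytene. Its wild-type level went from 24.5, 25.7 and 26.1 CPM in pachytene to 14.9 in diplotene, 9.21 in MI and 1.18 in ES. Kif13b and the endosome motor Kif16b peaked with it in preleptotene, at 107 CPM (92.3 to 123) and 36.9 CPM (28.6 to 46.8). Kif21a and Kif21b differed, with Kif21a at 20.6 CPM (17.5 to 24.0) in RS.3 and 0.0294 CPM in MI, and Kif21b at 17.6 CPM (13.4 to 22.7) in Diff.Spg2 and 10.6 CPM in ES. Kif26a, an atypical kinesin without motor activity, peaked in Diff.Spg1 at 54.1 CPM (44.6 to 64.9). It was then at 26.6 and 4.01 CPM in the later spermatogonial stages and at 10.5 CPM in preleptotene. With at most 5% mitochondrial UMIs its peak class was meiosis, and the median mitochondrial share in Diff.Spg1 was 6.07%.

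The 7 members under 10 CPM in every unit were Kif19a (8.33 CPM in MI), Kif13a (6.67 CPM in wild-type eP, from 6 UMIs), Kif3c (6.11), Kif26b (3.58), Kif1a (2.36), Kif12 (0.299) and Kif28 (0.117). Kif19a, which limits the length of cilia, was the only 1 of these with its peak in MI, and its level in diplotene, 7.85 CPM (6.90 to 8.89), overlapped that in MI (7.38 to 9.35). Kif18a, Kif4, Kif20a, Kif2a and Kif7, all above that level, overlap another named gene on the opposite strand (Mettl15, Pdzd11, Cdc23, Dimt1 and Ticrr), and the sources used here do not say whether counting used the strand. Kif12 had 1 UMI and Kif28 had 4 UMIs in all units and libraries.

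Between MI and the last round spermatid stage, compared after the values had been seen, 6 of 17 members tested in the wild-type library were at least 2-fold higher in RS.3 (35.3%, against 32.6% of 8206 genes) and 10 were at least 2-fold lower (58.8%, against 45.6% of genes). The median log2 ratio was -1.48 over the members and -0.80 over all genes. The higher share was near the background. Kif21a, with 1 UMI in MI and 160 in RS.3, was higher by 8.87 (6.95 to 14.8) on the log2 scale, Kif2b by 7.87 (7.52 to 8.27), Kif17 by 4.65 (4.27 to 5.06), Kif5c by 3.21 (2.66 to 3.80), Kif27 by 1.51 (1.33 to 1.68) and Kif2c by 1.19 (1.06 to 1.31). Of the 10 lower members, 7 belong to the division group (Kif23 at -4.09, Kif11 at -3.37, Kif18a at -2.88, Kif20a at -2.79, Kif15 at -2.29, Kif22 at -1.84 and Kif20b at -1.06), and the others were Kif3b at -2.71, Kif2a at -2.16 and Kif3a at -1.48. Scaling by the median of ratios took Kif20b to -0.26 and Kif3a to -0.68, which left 8 lower members. Thinned cells took Kif20b to -0.86 and Kif22 to 0.034, so these 3 were under 2-fold in at least 1 setting. Kif22 had 29 UMIs in RS.3 before thinning, so depth limits its thinned value. Only Kif9, at 57.0 and 65.6 CPM, lay within 2-fold.

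Across the 18 units, the levels of Kif16b and Kif18a were the most alike pair (Pearson r 0.97 of log2(CPM + 1)), followed by Kif5b and Kif13b (0.96) and Kif11 and Kif18a (0.94). The most opposed pair was Kif2b and Kif15 (-0.94). These values describe 18 units that share libraries and depth, and no p was computed.

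The partners of these motors were read in the same way, and their peak counts stand beside the shares over all genes given above (26.7% in spermatogonia, 42.5% in meiosis, 7.10% in MI and 23.7% in spermatids). Of 14 spindle midzone and cytokinesis partners, 6 peaked in spermatogonia, 6 in meiosis and 2 in MI. The 3 highest were Birc5 (409 CPM in MI) and Cdca8 (361 CPM in Diff.Spg1), subunits of the chromosomal passenger complex, and Prc1 (367 CPM in Diff.Spg2), which crosslinks midzone microtubules. Racgap1, which pairs with Kif23 in centralspindlin, peaked with it in preleptotene, but at 108 CPM against 90.2 in Diff.Spg3, a smaller step than that of Kif23. Of 19 genes of spindle assembly and chromosome motion, 8 peaked in spermatogonia, 8 in meiosis and 3 in MI, and the highest were Hspa2 (1802 CPM), Bub1 (416 CPM in preleptotene) and Ccnb1 (363.5 CPM in Diff.Spg2). From MI to RS.3, 12 of 13 tested midzone partners and 14 of 15 tested spindle genes were at least 2-fold lower, each with a median log2 ratio of -3.20, against 45.6% of all genes and a median of -0.80.

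Of 21 placed intraflagellar transport genes, 16 peaked in meiosis, 1 in MI, 4 in spermatids and 0 in spermatogonia, against 42.5%, 7.10%, 23.7% and 26.7% of all genes. The highest were Ift172 (1223 CPM in ES), Ift43 (814 CPM in RS.2) and Ift22 (583 CPM in RS.1), in stages where Kif3a and Kif3b were past their peak. Among 12 adaptors and light chains, 8 peaked in meiosis, and the highest were Kifap3, Mapk8ip3 (126 CPM in preleptotene) and the light chain Klc3. Klc3 stood at 102 CPM in ES and 0.147 CPM in MI. In the library labelled Zfp541-/- it was at 16.7 to 27.8 CPM in spermatogonia and 35.8 CPM in preleptotene. Cytoplasmic dynein and dynactin, the motor of the opposite direction, had 18 placed genes with 5, 7, 3 and 3 peaks in spermatogonia, meiosis, MI and spermatids, led by Dynll1 (3153 CPM), Dynll2 (2878 CPM) and Dctn2 (726 CPM). Manchette and acrosome transport partners had 5 peaks in meiosis, 5 in MI and 2 in spermatids of 12, led by Meig1 (10650 CPM), Ccdc181 (647 CPM) and Ranbp1 (587 CPM). Of the kinesins whose symbols fall outside the pattern, the kinetochore motor Cenpe was by far the highest, at 267 CPM in Diff.Spg1, 16.4 in wild-type diplotene and 54.2 in MI, followed by Kifc3 (34.1 CPM in ES) and Kifc1 (26.4 CPM in preleptotene).

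The libraries were compared in the stages they share, which asks how kinesin levels differed with the Zfp541 label. In mP, 19 members reached 10 CPM in at least 1 library. Of these 2 were at least 2-fold higher in the library labelled Zfp541-/- (15.0% of 7701 genes were) and 1 was at least 2-fold lower (10.6% of genes). In lP, 3 of 19 were higher (17.4% of 7635 genes) and 1 lower (14.3% of genes). Neither count exceeded the background share. Most members differed in 1 direction by less than 2-fold. In mP 15 of 19 had a log2 ratio above 0, with a median of 0.43 against 0.15 over all genes, of which 57.3% were above 0. In lP 16 of 19 did, with a median of 0.37 against 0.11, and 55.3% of all genes were above 0.

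Kif1c, a carrier of vesicles and mRNAs (chr11:70700548-70731964, plus strand), had the largest ratio of the 19 members tested. The wild-type library had 7 UMIs, or 0.720 CPM (0.290 to 1.48), in mP and 0 UMIs of 7978955 in lP, and the library labelled Zfp541-/- had 1142 UMIs, or 23.4 CPM (22.1 to 24.8), and 1203 UMIs, or 25.7 CPM (24.2 to 27.2). The log2 ratio was 4.92 (3.97 to 6.34) in mP. In lP the level was at least 68.3-fold higher, counting 3 UMIs for the wild-type library. A UMI was found in 34.9% of mP cells of the library labelled Zfp541-/- against 0.580% (4.72% against 0.249% after thinning). The difference was present in all 7 pachytene clusters of mP and lP, with 9.95 to 31.9 CPM in that library and 0 to 1.24 CPM in the wild-type library.

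Kif1c was also present before pachytene in the library labelled Zfp541-/-, at 8.81 to 18.3 CPM from spermatogonia to zygotene. In the wild-type library 28 Diff.Spg2 cells had 2 UMIs (22.3 CPM), and every unit from diplotene to ES was at 0.257 CPM or less. The gene next to Kif1c on the opposite strand, Inca1, was also higher, at 132 against 55.7 CPM in mP and 120.3 against 37.6 CPM in lP. Of the other 6 neighbours within 50000 bases, Camta2 (10.06 against 5.45 CPM in mP) and Rnf167 (40.8 against 27.2 CPM) were also at higher levels, both by less than 2-fold. Zfp3 was at 8.49 against 8.03 CPM, Pfn1 at 543 against 579 CPM, Eno3 at 45.7 against 54.5 CPM and Spag7 at 17.5 against 31.9 CPM. Somatic markers, given above for mP and lP, summed there to at most 6.28 CPM per type in both libraries. They were higher in other stages, such as 62.1 CPM for endothelial markers in Diff.Spg2 of the library labelled Zfp541-/-. Peritubular myoid markers stood at 403 CPM in wild-type ES. Their part in the Kif1c levels was not tested.

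**Figure D3:**
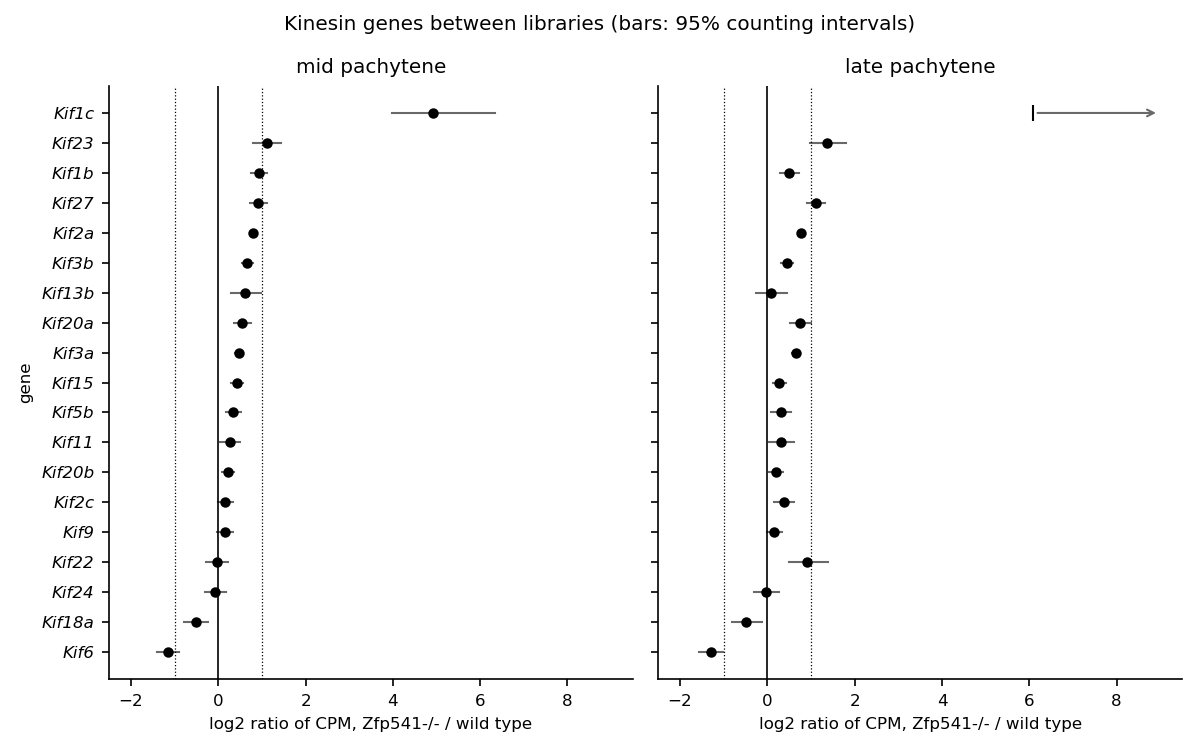
Log2 ratio of CPM, the Zfp541-/- library over the wild-type library (horizontal axis), for the 19 kinesin genes of at least 10 CPM in either library in mid and late pachytene, with 95% counting intervals as bars and dotted lines at 2-fold. Kif1c lies far to the right, where the arrow in late pachytene starts at its lower bound of 68.3-fold, and Kif6 is the only gene left of the lower dotted line.

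Kif23 was at 9.36 CPM (7.54 to 11.5) in wild-type mP and 20.3 CPM (19.0 to 21.6) for the library labelled Zfp541-/-, a log2 ratio of 1.11 (0.80 to 1.44). In lP the levels were 6.64 and 17.4 CPM, with a ratio of 1.37 (0.98 to 1.81). Scaling by the median of ratios took the mP value to 0.96, and thinning every cell to 2000 UMIs took the lP value to 0.98, both just under 2-fold. The ratio was in the same direction in the 4 mP clusters and the 3 lP clusters, though in cluster 5 the intervals overlapped. Kif23 was highest in preleptotene and next in spermatogonia, so markers of both are given beside it. The 10 preleptotene markers summed to 195 CPM in mP of the wild-type library (1 marker at 0) and 390.0 CPM for the library labelled Zfp541-/- (0 at 0), and to 160.2 and 308 CPM in lP. The 12 spermatogonium markers went the other way, at 279 and 247 CPM in mP and 573 and 491 CPM in lP. The part of either in the result was not tested.

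Kif27 was at 27.3 CPM (23.8 to 31.2) in wild-type lP and 59.2 CPM (57.0 to 61.4) for the library labelled Zfp541-/-, a log2 ratio of 1.11 (0.92 to 1.32). In mP it was at 25.2 and 47.7 CPM, with a ratio of 0.92 (0.73 to 1.12), just under 2-fold. With clusters weighted equally the lP ratio was 0.83, also under 2-fold. Its level was higher in all 7 clusters, from 28.4 against 13.5 CPM in cluster 22 to 74.9 against 39.7 CPM in cluster 5.

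Kif6 was the only tested member at least 2-fold lower. It stood at 19.0 CPM (16.4 to 21.98) in wild-type mP and 8.57 CPM (7.77 to 9.43) for the library labelled Zfp541-/-, a log2 ratio of -1.15 (-1.40 to -0.89), and at 19.8 and 8.11 CPM in lP (-1.29, -1.56 to -1.01). The intervals did not overlap in clusters 2, 7, 11, 0, 5 and 22. In cluster 4 the levels were 12.8 CPM (8.33 to 18.7) and 12.4 CPM (10.2 to 14.9). Kif9, its relative in the same subfamily, was at 32.7 and 36.4 CPM in mP and 43.0 and 48.2 CPM in lP, within 2-fold. The 10 elongating spermatid markers summed to 308 CPM in wild-type mP and 1.37 CPM in the library labelled Zfp541-/- (7 at 0), and Kif2b, a spermatid gene, was at 2.37 and 0.0205 CPM there. Kif6 was at 0.900 CPM in RS.3 and 2.36 CPM in ES. The part of spermatid transcripts in the Kif6 ratio was not tested.

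**Figure D4:**
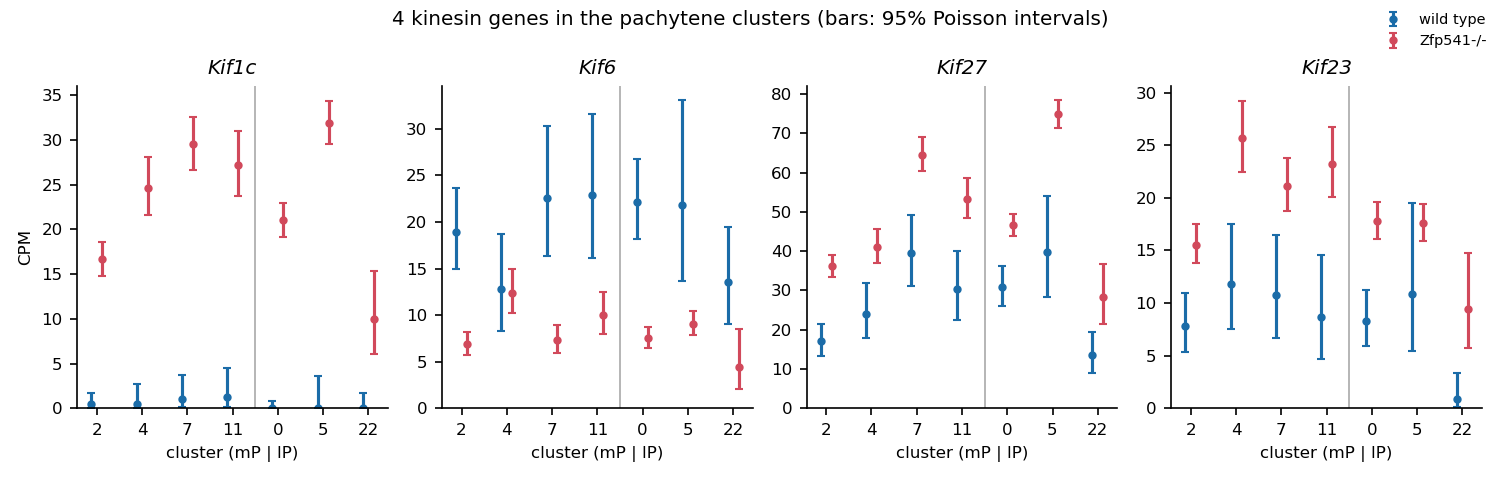
CPM (vertical axes, from 0) of Kif1c, Kif6, Kif27 and Kif23 in the 4 mid pachytene clusters (left of the grey line) and the 3 late pachytene clusters (right), wild type in blue and Zfp541-/- in red, with 95% Poisson intervals as bars. Kif1c is near 0 in the wild-type library in every cluster, and Kif6 is lower in the Zfp541-/- library except in cluster 4.

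Of the 16 tested members within 2-fold in mP, 12 had a counting interval that excluded 0. The same share was not computed over all genes, whose median was 0.15, so this count is no result about the members. Kif2a was at 221 and 383 CPM in mP (0.79, 0.73 to 0.86) and 250.3 and 426 CPM in lP (0.77, 0.70 to 0.83). Kif1b was at 25.7 and 49.1 CPM in mP (0.93), Kif3b at 69.7 and 111 CPM (0.67) and Kif3a at 139 and 193 CPM (0.48). Kif18a went the other way, at 14.6 and 10.3 CPM in mP (-0.52) and 11.5 and 8.30 CPM in lP (-0.48). The intervals of Kif2c (30.3 and 33.9 CPM in mP), Kif9, Kif22 (17.6 and 17.2 CPM) and Kif24 (18.3 and 17.4 CPM) included 0.

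The partner lists were read beside these members, and the shares over all genes in mP are those given above (15.0% higher and 10.6% lower, median 0.15). In mP, 0 of 21 intraflagellar transport genes were at least 2-fold higher and 2 were lower, Ift43 (521 and 225 CPM) and Ift27 (234 and 103 CPM), with a median of 0.12. Among 18 spindle genes 2 were higher, Nusap1 (33.6 and 73.8 CPM) and Bub1b (41.1 and 83.7 CPM), and 2 lower, Ska1 (54.5 and 19.0 CPM) and Cdk1 (68.7 and 27.9 CPM), with a median of 0.47. Of 12 midzone partners 0 were higher and 2 lower, with a median of 0.24. These were the chromosomal passenger subunits Aurkc (22.7 and 1.97 CPM) and Birc5 (237 and 103 CPM), while Kif23, with which they meet at the midzone, was higher. Of 9 adaptors, Trak1 (6.07 and 17.3 CPM) was higher and Plekhm2 (19.7 and 8.88 CPM) lower, with a median of 0.09. Of 16 dynein and dynactin genes, Dynll2 (32.8 and 132 CPM) and Dync1li1 (9.47 and 21.8 CPM) were higher and Dynlrb2 (297 and 124 CPM) lower, with a median of -0.13. None of 12 manchette genes passed 2-fold, with a median of -0.36, and of the 2 other kinesins tested Cenpe was higher (23.9 and 49.2 CPM).

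Early pachytene was compared within its 2 clusters, because each had a spermatogonium marker and no pachytene marker among its 10 leading genes. In cluster 12, with 75 wild-type and 713 other cells, 2 of 21 members were at least 2-fold higher in the library labelled Zfp541-/- (14.4% of genes) and 1 was lower (8.77% of genes). The 2 were Kif23 (13.4 and 31.8 CPM) and Kif1c (3.35 and 11.97 CPM), and the lower member was Kif13a, from 3 wild-type UMIs. The intervals of all 3 ratios include 0, and with thinned cells Kif23 (0.55) and Kif1c (-0.41) were under 2-fold. In cluster 16, with 155 and 451 cells, 7 of 19 were higher, or 36.8%, against 20.4% of genes, and 0 were lower (8.70% of genes). These were Kif1c (2.57, 0.61 to 8.47), Kif9 (1.63, 0.38 to 3.70), Kif23 (1.40, 0.46 to 2.72), Kif1b (1.36, 0.61 to 2.34), Kif15 (1.10, 0.58 to 1.72), Kif2a (1.02, 0.73 to 1.34) and Kif20b (1.01, 0.49 to 1.63). The median over the members was 0.65 against 0.28 over all genes, and 4 of the 7 remained past 2-fold once that all-gene median was subtracted (not Kif15, Kif2a and Kif20b). With thinned cells Kif9 (0.88) and Kif20b (0.99) were under 2-fold.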

How the data were processed

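Single-cell 3' transcriptomes of 2 libraries were used, 1 per genotype. The submitters' processing notes name Cell Ranger 3.1.0, Seurat 3.2.0 and mm10, with further steps not given in the sources used here. Deposited matrices hold whole-number counts of UMIs per gene and cell. The authors' deposited cell table gives a cluster, a stage and the percent of mitochondrial UMIs of each annotated cell. A merged matrix was left out because it repeats these cells, and every cell name mapped to a library.

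Counts were added up for each gene in each stage of a library and expressed as CPM with python 3.11.15, numpy 2.4.6, scipy 1.17.1 and pandas 2.3.3. Log2 ratios were taken after adding 0.5 counts to each sum, for genes of at least 10 CPM in either group. Scripts were tested on simulated data. Shares of cells were repeated after thinning to 2000 UMIs, which left out 466 shallower cells. No doublet caller was run, and leaving out the deepest 5% of cells was an alternative. Gene positions are from GENCODE, matched by identifier for all 38 members.

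The members, gene lists and tests were chosen with earlier results of these data known. The rule for naming was to account for every member, give values by stage for those of at least 10 CPM, in most detail for the 4 highest of each peak class, and between libraries for those past 2-fold in mP or lP. Of each partner list the 3 highest were named, and those past 2-fold in mP were added after their values were seen, as were Incenp and Aurkb. Promoter windows of Kif11, Kif23 and Kif17 were also chosen after values were seen.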

Additional observations from a re-analysis of the deposited data

How the results depend on the processing

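No paired analysis was possible because each genotype had 1 library. All comparisons rest on these 2 libraries and on counting error alone, and leaving out a replicate was not run.

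By peak class, a threshold of 50 CPM left 8 members in spermatogonia. The wild-type library alone, from units of at least 20 cells, gave 18 in spermatogonia, 7 in meiosis, 1 in MI and 8 in spermatids. There 19 of 31 members kept their class. That setting holds no Diff.Spg1, preleptotene or leptotene unit, so a member with its peak there could not keep that stage. MI held 1 member at a threshold of 5 CPM and 1 with thinned cells. Of the other settings, the fewest members to keep their class was 28 of 31, with at most 5% mitochondrial UMIs. There Kif5c and Kif26a moved to meiosis and Kif18a to spermatogonia.

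Counts past 2-fold moved mostly with the level threshold. At 1 CPM they were 4 lower in mP, 6 higher and 4 lower in lP, 4 higher and 3 lower in cluster 12, 12 higher and 3 lower in cluster 16, and 18 lower from MI to RS.3. At 50 CPM they were 0 higher and 0 lower in mP, 1 higher and 0 lower in lP, 0 and 0 in cluster 12, 4 higher in cluster 16, 0 and 0 from diplotene to MI, and 3 higher and 3 lower from MI to RS.3. Fewer members are tested at 50 CPM by construction. At 1 CPM a single wild-type UMI passed the threshold in the early clusters, at 3.35 CPM in cluster 12 and 1.66 CPM in cluster 16. Shares over all genes were not counted at 1 or 50 CPM or in the settings below. These counts are therefore no result about the members. Scaling by the median of ratios gave 1 higher in mP, 1 in cluster 12 and 4 in cluster 16. Thinned cells gave 4 higher in mP, 1 lower in cluster 16, 5 higher in preleptotene and 2 lower in MI. Leaving out the deepest 5% of cells gave 4 higher in mP, at most 5% mitochondrial UMIs gave 4 higher in cluster 12, and adding 1 count gave 0 higher there.

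Of 242 alternative values for the 47 member ratios past 2-fold, 219 stayed past it and 2 changed sign, both with thinned cells: Kif1c in cluster 12 (-0.41) and Kif22 from MI to RS.3 (0.034). The cause was not tested. In cluster 12 the wild-type library had 1 Kif1c UMI, and in RS.3 Kif22 had 29 UMIs before thinning, so depth limits both values.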
